A study of Caenorhabditis elegans with 20 samples.

Results

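The data described here were genome-wide maps of an epitope-tagged histone in Caenorhabditis elegans, either mutant (H3.3K27M) or not. They came from 4 of the 20 libraries of the series: the OLLAS immunoprecipitate (IP) and its input from H3.3K27M OLLAS worms (strain FAS119), and the same pair from H3.3 OLLAS worms (strain FAS107). They were chosen because these are the libraries in which both versions of the histone were precipitated through one tag. Each strain had 1 IP library and 1 input library, so the differences have no replicate check and no p-value is given. The series as a whole compared marks and histones in strains with altered H3.3. From it, the H3K27me3 track of the wild type (strain N2) served to class the genome, so the classes come from neither OLLAS strain. That of the H3-like strain (FAS100) served as an alternative for these classes and as a yardstick. The wild-type H3K36me3 track served as a description.

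H3.3K27M OLLAS worms carried the allele uge79 of his-72, which encodes HIS-72 with the OLLAS tag and the K27M change, and H3.3 OLLAS worms the allele uge69, which encodes tagged HIS-72 without it. Both alleles are edits of the endogenous gene on chromosome III, so the tag is shared by both strains, and the labels name no other allele in either. Worms of both strains, like those of N2 and FAS100, were grown at 20 °C and collected as young adults. Chromatin was cut with MNase without crosslinking, from nuclei of whole worms that the study's protocol describes as enriched for germ-cell nuclei. The tracks therefore average over somatic and germ-cell nuclei. At a given place, fewer nuclei with tagged histone there cannot be told apart from less tagged histone in each nucleus. Since read numbers were made equal between libraries, higher and lower are relative to the rest of the same track. A change in the total amount of tagged histone that is even over the genome would not show. The tracks hold no expression values, so the share of germ-cell nuclei was not checked. They also hold no reads over the edited codon, so the genotype was not checked either. The worm has other H3.3 genes beside his-72, whose untagged products this antibody does not see.

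H3.3 is a variant of histone H3 that chaperones place into chromatin outside DNA replication, at sites where nucleosomes are turned over, such as transcribed genes and regulatory elements. Lysine 27 of the H3 tail is the residue that the Polycomb enzyme PRC2 methylates to H3K27me3, a mark of silent chromatin, whereas H3K36me3 is laid down over transcribed genes. The K27M change, known from childhood brainstem tumours, puts a methionine in place of that lysine, and the mutant histone inhibits PRC2. Autosomes of the worm have gene-dense centres and repeat-rich arms, and the X chromosome is kept largely silent in the germ line. The comparison asks whether the mutant histone takes the same places in the genome as the unmutated one.

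The level of tagged histone is given as log2 of IP over input in bins of 1 kb, as the authors deposited it, with 0 meaning equal scaled reads in both. Of 100269 bins on the 6 chromosomes, 874 without reads were left out and 99395 were used. Depth was worked out by solving each value for whole reads. The median bin held 532 IP and 322 input reads in H3.3K27M OLLAS, against 950 IP and 814 input reads in H3.3 OLLAS, so the H3.3K27M OLLAS input is the thinnest of the 4 libraries. Neighbouring bins can share reads, so these are not library totals.

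Both tagged histones were rich and poor in the same places, and most bins differed by less than 0.40 on the log2 scale. The level had an SD over bins of 0.63 in H3.3K27M OLLAS and 0.60 in H3.3 OLLAS. With rich defined as a level over 0.5 and poor as one under -0.5, 16.6% of bins were rich in H3.3K27M OLLAS and 15.2% in H3.3 OLLAS, and 28.4% were poor in H3.3K27M OLLAS and 29.6% in H3.3 OLLAS. A total of 12907 bins (13.0%) were rich in both strains and 24667 (24.8%) were poor in both. Only 54 bins were rich in one strain and poor in the other. Of the 9939 highest bins of each strain 7867 were shared (79.2% of each list), and of the 9939 lowest bins 7530 were shared (75.8%). Bins among the highest of H3.3K27M OLLAS but not of H3.3 OLLAS still had a median level of 0.55 in H3.3 OLLAS, close to the lower limit of that list (0.65).

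**Figure D1:**
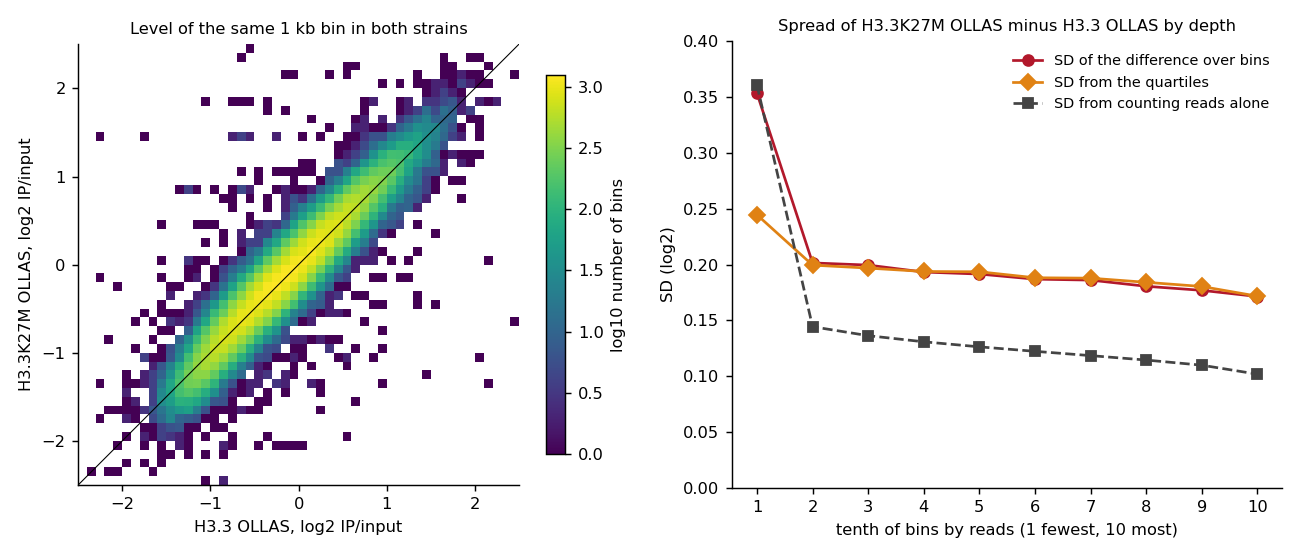
Left, the level (log2 IP over input) of each 1 kb bin in H3.3K27M OLLAS on the vertical axis against H3.3 OLLAS on the horizontal axis, coloured by the log10 number of bins in each square of 0.1 by 0.1, with the line of equal levels; 26 bins lie outside the plot. Right, the SD over bins of H3.3K27M OLLAS minus H3.3 OLLAS in 10 equal groups of bins from the fewest to the most reads, beside the SD from the quartiles and the SD that counting reads alone gives: from the second group on, the observed SD (0.20 to 0.17) lies above the counting SD (0.14 to 0.10).

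The bins rich in both strains lay more on some chromosomes than on others. Of them, 24.1% were on chromosome I and 22.4% on III, which hold 15.1% and 13.8% of all bins, but 9.40% on X, which holds 17.8%. Of the bins poor in both, 35.8% were on V, which holds 20.6% of all bins, and 4.40% on III. X and IV held 22.4% and 20.1% of the bins poor in both, nearer to their 17.8% and 17.4% of all bins. The median bin rich in both had a wild-type H3K27me3 level of -0.25, and the median bin poor in both had 0.41. Bins rich in H3.3K27M OLLAS alone (3553) and those rich in H3.3 OLLAS alone (2187) differed in this respect: the median wild-type H3K27me3 was 0.20 in the first set and -2.37 in the second.

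Over all bins, H3.3K27M OLLAS minus H3.3 OLLAS had a median of 0.014 and an SD of 0.21, and 95% of bins lay between -0.37 and 0.40. Counting error of the recovered reads alone would give an SD of 0.16, or 60.2% of the variance. In the 97572 bins with at least 100 reads in each library the SD was 0.19 and the counting SD 0.13 (44.1% of the variance). In what remains, a difference between the strains cannot be told apart from one between the preparations. As a yardstick, H3K27me3 of the H3-like strain, whose H3.3 was given residues of H3, minus that of the wild type had an SD of 0.24 and a counting SD of 0.12 over the 78664 of its bins with that depth. Those 2 strains also differ in genotype, so this is no replicate pair. Taken from the quartiles, which discount the tails, the SD was 0.187 in that pair and 0.191 in the OLLAS pair at that depth. Without the depth limit, over 99371 bins, the SD of the H3K27me3 pair was 0.41, and 0.26 from the quartiles. The bins with that depth are not the same set in both pairs.

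Differences of more than 1, which is 2-fold, were rare and sat where reads were few. H3.3K27M OLLAS was higher by more than 1 in 109 bins (0.11% of all bins) and lower by more than 1 in 89 bins (0.0895%). In these 198 bins the median was 7 IP and 3 input reads in H3.3K27M OLLAS and 15.5 IP and 13.5 input reads in H3.3 OLLAS, and 180 of them (90.9%) had under 20 reads in at least 1 library, against 0.53% of all bins. With at least 100 reads in each library, 1 bin was higher (0.00102%) and 3 were lower (0.00307%).

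These 4 bins are named after their values were seen. All coordinates are in WBcel215. The bin at chrIV:15782001-15783000 had a level of 0.39 in H3.3K27M OLLAS and -0.69 in H3.3 OLLAS, from 658 IP and 269 input reads in H3.3K27M OLLAS and 651 and 796 in H3.3 OLLAS. Most of its difference of 1.08 was in the IP. To show this, the difference was split into an IP part, the difference of log2 scaled IP reads, and an input part, that of log2 scaled input reads, and the difference is the IP part minus the input part. In this bin the IP part was 0.88 and the input part -0.20. The other 3 bins were lower in H3.3K27M OLLAS, and in each the input part was larger than the IP part. At chrX:2008001-2009000 the level was -0.73 in H3.3K27M OLLAS and 0.90 in H3.3 OLLAS, with an IP part of -0.19 and an input part of 1.44. The bin at chrII:4308001-4309000 had levels of 0.048 in H3.3K27M OLLAS and 1.29 in H3.3 OLLAS, with an input part of 1.13. At chrI:3056001-3057000 the levels were -1.30 in H3.3K27M OLLAS and -0.29 in H3.3 OLLAS, with an input part of 0.64.

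Smaller differences were more common. H3.3K27M OLLAS was higher by more than 0.5 in 904 bins (0.91%) and lower in 635 (0.639%). With at least 100 reads in each library these were 601 bins higher (0.616%) and 369 lower (0.378%). Among those 601 higher bins the IP part was the larger one in 466 (77.5%), and among the 369 lower bins in 286 (77.5%). Chromosome IV held the highest share of higher bins at that depth, 223 of 16908 (1.32%), with 41 lower ones (0.24%). On X it was the other way round, with 24 of 17417 bins higher (0.14%) and 78 lower (0.45%). Autosome centres had 352 higher (0.87%) and 58 lower bins (0.14%), whereas autosome arms had 225 higher (0.57%) and 233 lower (0.59%).

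Chromosomes differed far more from each other than the strains did. Arms are here the outer 25% at each end of a chromosome and the centre is the middle 50%, by the last listed base. Chromosome III had the highest median level, 0.14 in H3.3K27M OLLAS and 0.13 in H3.3 OLLAS, followed by I with 0.12 in H3.3K27M OLLAS and 0.11 in H3.3 OLLAS. Chromosome II had -0.078 in H3.3K27M OLLAS and -0.10 in H3.3 OLLAS. The lowest autosome was V, with -0.44 in H3.3K27M OLLAS and -0.46 in H3.3 OLLAS, and X lay above it, at -0.31 in both strains. In both strains the order was thus III, I, II, IV, X and V. The gap between the strains was largest on IV, with -0.18 in H3.3K27M OLLAS and -0.26 in H3.3 OLLAS, a median difference of 0.055 and 60.5% of bins higher in H3.3K27M OLLAS. On V and X the median differences were -0.0081 and -0.012, and on I, II and III they lay between 0.017 and 0.023. The median difference on X minus that on the autosomes was -0.032, and on scaled IP reads alone it had the opposite sign (0.017). These shifts are small against the spread between bins of one chromosome, since the middle 50% of bins on IV had differences of -0.079 to 0.19.

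**Figure D2:**
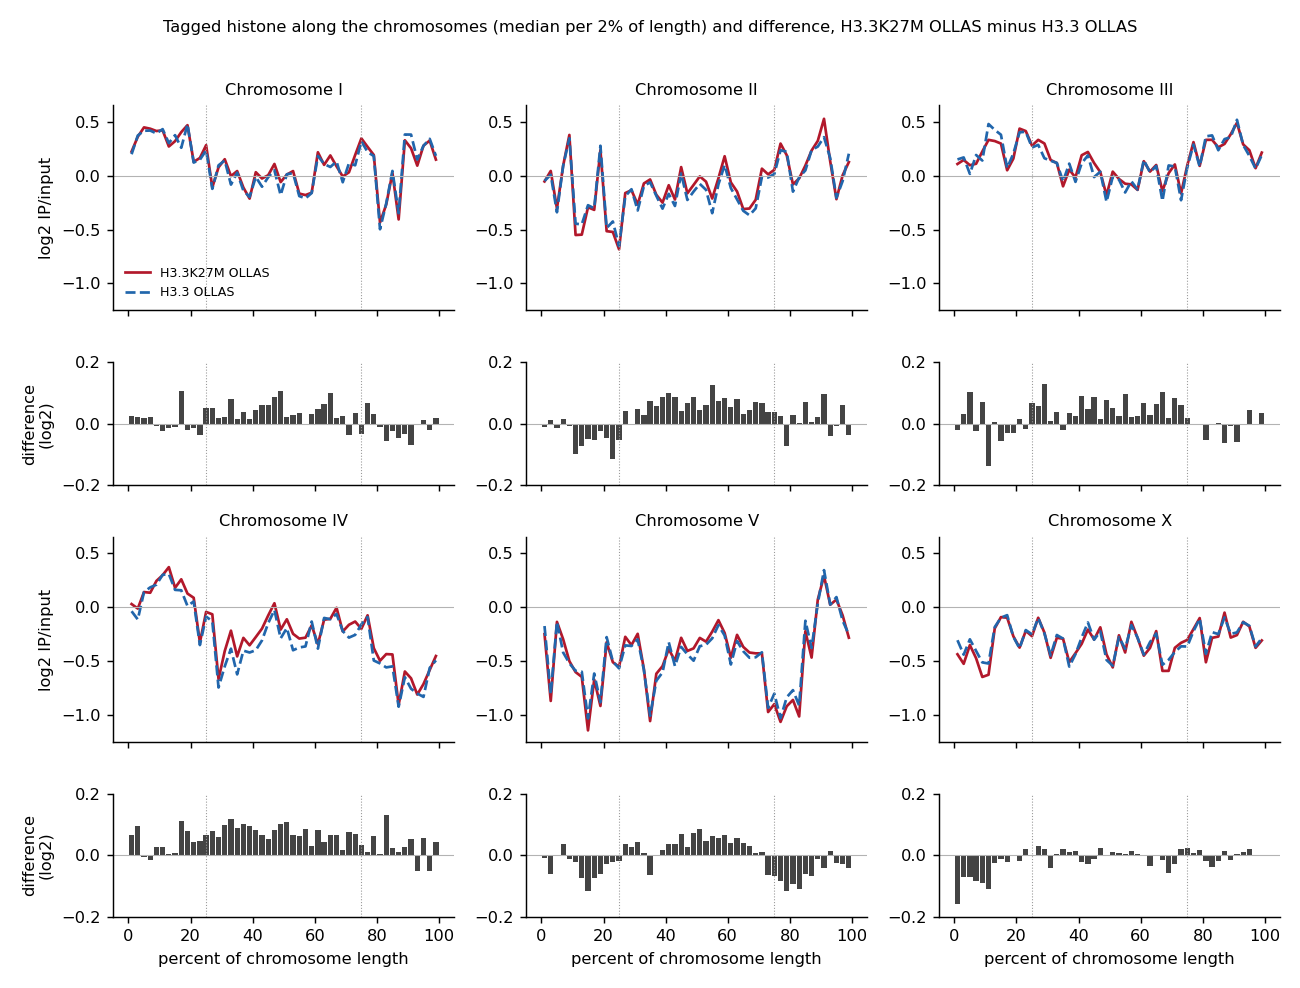
Median level (log2 IP over input) in each 2% of chromosome length for H3.3K27M OLLAS (solid red) and H3.3 OLLAS (dashed blue), and below each panel the median difference, H3.3K27M OLLAS minus H3.3 OLLAS (grey bars, log2); dotted lines mark the limits between arms and centre. The curves of both strains run together, between -1.14 and 0.53 in H3.3K27M OLLAS and between -1.03 and 0.52 in H3.3 OLLAS, and the bars stay within 0.16 of 0.

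In segments of 2% of chromosome length, both strains had their peaks and troughs in the same segment on chromosomes I to V. On V the trough, centred at 15% of its length in the left arm, was at -1.14 in H3.3K27M OLLAS and -1.03 in H3.3 OLLAS, and the peak at 91% was at 0.29 in H3.3K27M OLLAS and 0.34 in H3.3 OLLAS. Chromosome IV had its peak at 13% and its trough at 87% of its length, where levels were -0.91 in H3.3K27M OLLAS and -0.92 in H3.3 OLLAS. On X no segment had a median level above 0 in either strain, and the peaks and troughs of the strains fell in different segments. The difference was above 0 in 46 of 50 segments of IV, in 25 of 50 on V and in 22 of 50 on X.

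Over the autosomes together, the arms were richer in tagged histone than the centres in both strains. The median level in arms was -0.033 in H3.3K27M OLLAS and -0.031 in H3.3 OLLAS. In the centres it was -0.14 in H3.3K27M OLLAS and -0.18 in H3.3 OLLAS. Chromosome V went the other way, with arms at -0.48 in H3.3K27M OLLAS and -0.46 in H3.3 OLLAS and a centre at -0.41 in H3.3K27M OLLAS and -0.45 in H3.3 OLLAS. The median difference between strains was lower in the arms (-0.011, 47.8% of bins higher in H3.3K27M OLLAS) than in the centres (0.051, 60.3% of bins higher). The difference was lower in arms than in the centre on each of the 5 autosomes. Chromosome V had median differences of -0.047 in arms and 0.030 in the centre, and IV had 0.034 and 0.075. On I they were -0.0045 and 0.041, on II -0.015 and 0.060, and on III -0.0073 and 0.053. The input moved with it. In the arms the median IP part was -0.065 and the input part -0.057, and in the centres the IP part was 0.11 and the input part 0.048. On scaled IP reads alone, without dividing by input, the level of H3.3K27M OLLAS was lower in arms than in centres by 0.087, and that of H3.3 OLLAS higher by 0.089, so for H3.3K27M OLLAS the direction of the contrast depends on the input. The arm to centre contrast of the difference was -0.062 with the input and -0.17 on scaled IP reads alone.

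Single arms stood apart from this. The left arm of I and both arms of III were the richest regions, with medians of 0.32, 0.25 and 0.27 in H3.3K27M OLLAS against 0.32, 0.26 and 0.27 in H3.3 OLLAS. The poorest were the left arm of V (-0.54 in both strains) and the right arm of IV (-0.52 in H3.3K27M OLLAS and -0.58 in H3.3 OLLAS). The 2 arms of II had median levels of -0.22 on the left and 0.13 on the right in H3.3K27M OLLAS, against -0.19 and 0.12 in H3.3 OLLAS. On X the left arm had a median difference of -0.047, and in its centre and right arm 49.7% and 49.9% of bins were higher in H3.3K27M OLLAS. The last 200 kb at both ends of X, pooled, had a level of -0.41 in H3.3K27M OLLAS and -0.29 in H3.3 OLLAS over 395 bins. Their median difference was -0.099 with 30.6% of bins higher in H3.3K27M OLLAS, whereas the tips of the autosomes had median differences of 0.019 to 0.068. The 2 ends of X were not alike: the median difference was -0.16 in the first 2% of its length and -0.0031 in the last 2%.

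**Figure D3:**
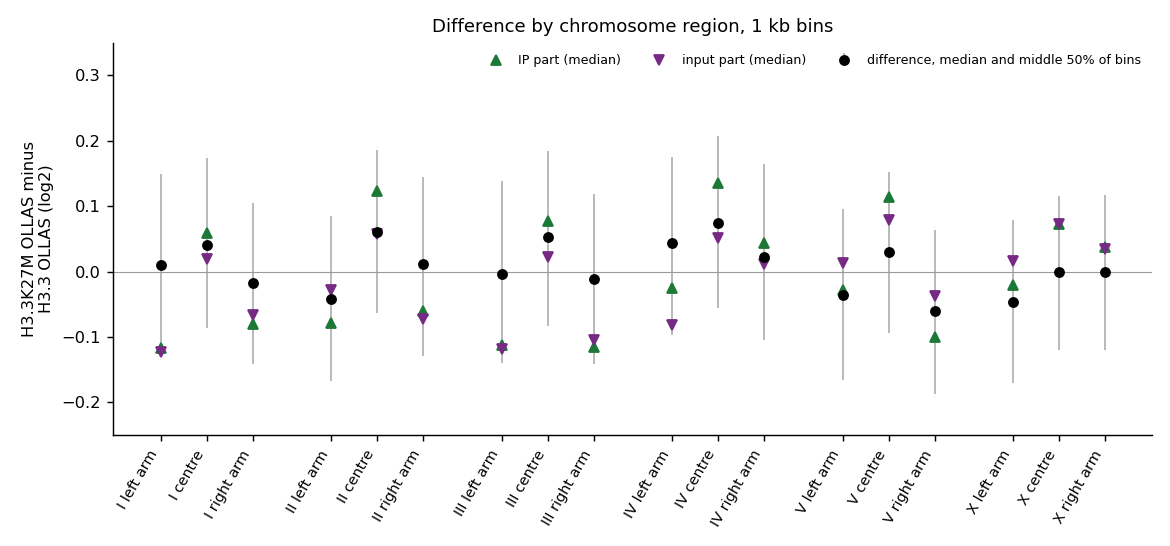
Median of H3.3K27M OLLAS minus H3.3 OLLAS (log2) over 1 kb bins in the left arm, centre and right arm of each chromosome (black points, with bars for the middle 50% of bins), with the medians of its IP part (green) and input part (purple). The centre lies above both arms on every autosome, from 0.030 on V to 0.075 on IV, and the IP and input parts move together.

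The difference on autosomes also varied with the H3K27me3 level that a bin has in the wild type, as measured with an antibody against H3K27me2/me3. Autosomal bins were put in 5 classes of 16348 bins each by that level, whose medians were -2.96, -0.64, 0.24, 0.37 and 0.50. In the class with the least H3K27me3, the level of tagged histone was 0.10 in H3.3K27M OLLAS and 0.20 in H3.3 OLLAS, with a median difference of -0.095 and 28.0% of bins higher in H3.3K27M OLLAS. In the second class the strains were alike in their medians, 0.30 in H3.3K27M OLLAS and 0.28 in H3.3 OLLAS. In the middle class the level was -0.10 in H3.3K27M OLLAS and -0.22 in H3.3 OLLAS, with a median difference of 0.098 and 70.7% of bins higher in H3.3K27M OLLAS. The median difference was 0.069 in the fourth class and 0.030 in the class with the most H3K27me3, where levels were -0.53 in H3.3K27M OLLAS and -0.57 in H3.3 OLLAS. Tagged histone was thus poor where H3K27me3 was high in both strains, and the top minus the bottom class gave -0.63 in H3.3K27M OLLAS and -0.77 in H3.3 OLLAS.

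The same held for the count of bins that differed by more than 0.5 with at least 100 reads in each library, read against the genome-wide 0.616% higher and 0.378% lower. From the least to the most H3K27me3, the 5 autosomal classes held 3, 74, 200, 156 and 144 higher bins (0.018%, 0.47%, 1.24%, 0.96% and 0.91%). In the same order they held 130, 81, 11, 21 and 48 lower bins (0.80%, 0.51%, 0.068%, 0.13% and 0.30%). The middle class thus had the most higher and the fewest lower bins.

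**Figure D4:**
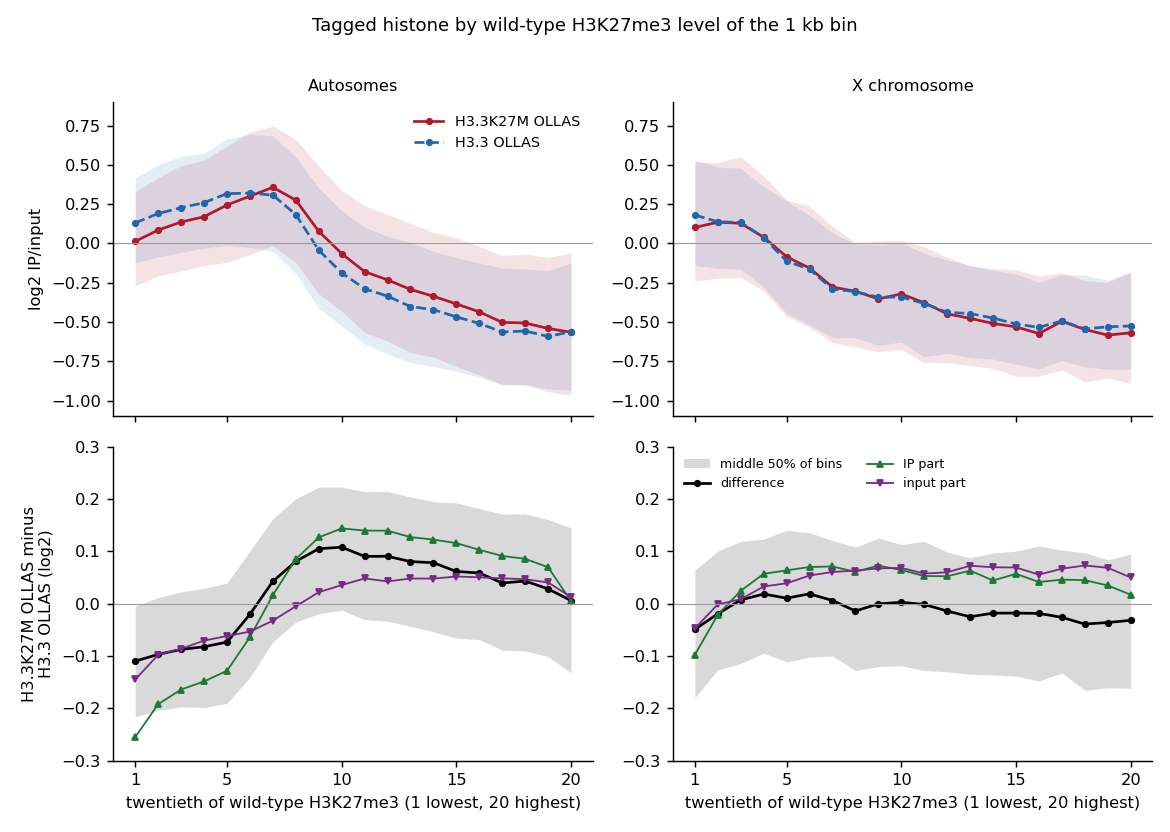
Top, median level (log2 IP over input, shading for the middle 50% of bins) in 20 classes of 1 kb bins from the lowest to the highest wild-type H3K27me3 on autosomes (left) and on X (right), for H3.3K27M OLLAS (solid red) and H3.3 OLLAS (dashed blue). Bottom, the median difference, H3.3K27M OLLAS minus H3.3 OLLAS (black, shading for the middle 50% of bins), with its IP part (green) and input part (purple). On autosomes the difference runs from -0.11 in the lowest class to 0.11 in the tenth and 0.0059 in the highest, and on X it stays between -0.049 and 0.019.

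In 20 finer classes the level of H3.3 OLLAS was highest in the sixth (0.32) and that of H3.3K27M OLLAS in the seventh (0.36), where the wild-type H3K27me3 medians were -1.36 and -0.23. The difference was lowest in the first class, with a level of 0.013 in H3.3K27M OLLAS and 0.13 in H3.3 OLLAS, and highest in the tenth (0.11). The pattern was present at each level of tagged histone. When autosomal bins were also grouped into 5 classes by the mean level of both strains, the median difference in the lowest H3K27me3 class was between -0.14 and -0.044 at each of the 5 levels, and that in the middle H3K27me3 class was between 0.011 and 0.13.

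The pattern was present on each autosome. In the class with the least H3K27me3 the median difference lay between -0.10 on V and -0.088 on I. In the middle class it was 0.12 on III and IV, 0.11 on I and 0.094 on II, and 0.049 on V. In the class with the most H3K27me3 the autosomes spread more widely, with 0.10 on III at one end and -0.021 on V at the other. It was also present in arms and centres taken apart: the lowest and middle classes had median differences of -0.12 and 0.068 in arms and of -0.071 and 0.12 in centres. Here too the input moved in the same sense as the IP, by less: in the lowest class of all autosomes the IP part was -0.19 and the input part -0.099, and in the middle class they were 0.14 and 0.037.

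On X the level of tagged histone also declined with wild-type H3K27me3, by classes formed over X alone, but the strains stayed together. From the class with the least to that with the most H3K27me3, median levels were 0.10, -0.22, -0.38, -0.52 and -0.55 in H3.3K27M OLLAS, against 0.13, -0.22, -0.37, -0.50 and -0.52 in H3.3 OLLAS. The median difference lay between -0.032 and 0.0052 in these 5 classes. Bins with as little H3K27me3 as the lowest autosomal class are not what the lowest X class holds, whose median H3K27me3 was 0.034, so classes of the same rank on X and the autosomes are not matched in H3K27me3.

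Differences ran over several neighbouring bins. The difference of a bin correlated with that of the next 1 kb bin at r = 0.30 (Spearman's rho 0.34, 99095 pairs), with the bin 10 kb away at r = 0.14 and with the bin 50 kb away at r = 0.050. These values describe bins of the same 4 libraries, and adjacent bins can share reads. Longer stretches were therefore taken as 10 kb windows, of which 9907 of 10011 had at least 8 of their 10 bins and a median of at least 20 reads per bin in each library. Their differences had an SD of 0.12 and 95% of them lay between -0.20 and 0.24. The median counting error, from reads summed over each window, was 0.039. Reads shared by adjacent bins can enter that sum more than once, so this error can be too small. Across windows the levels of both strains correlated at r = 0.97.

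The difference between strains also went with wild-type H3K36me3, which was available in 10 kb windows. In 5 classes of autosomal windows from the lowest to the highest H3K36me3, the median difference was 0.12, 0.064, 0.021, -0.024 and -0.080. On X, in classes of its own, it was 0.055, 0.017, -0.015, -0.048 and -0.086. Across windows the difference correlated with H3K36me3 at r = -0.54 on autosomes (Spearman's rho -0.58, 8146 windows) and at r = -0.60 on X (rho -0.61, 1761 windows). In the windows of lowest H3K36me3 on autosomes the level was 0.059 in H3.3K27M OLLAS and -0.073 in H3.3 OLLAS, and in those of highest H3K36me3 it was -0.065 in H3.3K27M OLLAS and 0.0025 in H3.3 OLLAS. These are correlations over windows of single libraries and carry no test.

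H3.3K27M OLLAS was higher by more than 0.25 in 209 windows (2.11%) and lower by more than 0.25 in 79 (0.797%), and 4 windows were higher and 2 lower by more than 0.5. Of the 209 higher windows 75 were on IV (4.36% of its windows), 45 on I, 38 on III, 35 on II, 14 on V and 2 on X. The 79 lower windows were spread more evenly, with 23 on V (1.12% of its windows), 17 on X (0.97%) and 13 on II (0.86%), down to 7 on I (0.47%). Autosome centres held 124 higher and 7 lower windows, and arms 83 higher and 55 lower. The higher windows had a median wild-type H3K27me3 of 0.33 and H3K36me3 of -0.34, the lower ones -2.20 and 0.35, and all ranked windows 0.27 and -0.10. The IP part was the larger one in 180 of the 209 higher windows (86.1%) and in 71 of the 79 lower ones (89.9%).

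Among the windows with the largest differences, some differed in the IP and some in the input. The highest was chrI:1120001-1130000, with a mean level of 1.20 in H3.3K27M OLLAS and 0.42 in H3.3 OLLAS. Its difference of 0.78 (95% counting interval 0.69 to 0.87) had an IP part of 0.041 and an input part of -0.74, so scaled IP reads were almost equal. Such intervals rest on reads summed over the window, whereas the difference is a mean over bins. They can be too narrow where adjacent bins share reads or where a bin has few reads, and 1 bin here differed by 3.08. By comparison, chrIV:15780001-15790000 had levels of -0.17 in H3.3K27M OLLAS and -0.71 in H3.3 OLLAS, and its difference of 0.55 (0.46 to 0.63) had an IP part of 0.53 and an input part of -0.017. All 10 of its bins were higher in H3.3K27M OLLAS, and it contains the bin of the same chromosome named above. The window chrIV:14450001-14460000 was alike, with levels of 0.060 in H3.3K27M OLLAS and -0.47 in H3.3 OLLAS and an IP part of 0.63, and it too was higher in 10 of 10 bins. Both had wild-type H3K27me3 above 0 (0.49 and 0.27), as did the median of all ranked windows (0.27).

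The remaining windows among the 5 highest were chrIII:11590001-11600000 and chrIV:3170001-3180000. The first had levels of 0.11 in H3.3K27M OLLAS and -0.49 in H3.3 OLLAS, but only 6 of its 9 bins were higher, it held a median of 80 input reads per bin in H3.3K27M OLLAS, and on input-subtracted signal its sign was the opposite (-1.34 scaled reads). The second had levels of 0.45 in H3.3K27M OLLAS and -0.015 in H3.3 OLLAS, with an input part of -0.27 that exceeded its IP part of 0.20.

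Of the 5 lowest windows 4 lay near the ends of X and III, and in all 5 the IP part was larger than the input part. The lowest of all was chrX:10001-20000 at the left end of X, with levels of -0.84 in H3.3K27M OLLAS and -0.22 in H3.3 OLLAS, an IP part of -0.68 and an input part of -0.060. Its 8 bins held a median of 97 IP reads in H3.3K27M OLLAS and 155 in H3.3 OLLAS, 1 of them was higher, and the lowest differed by -2.32. On input-subtracted signal the difference of this window was only -0.32 scaled reads. Another 3 lay close together at the left end of III. The window chrIII:320001-330000 had levels of -0.26 in H3.3K27M OLLAS and 0.34 in H3.3 OLLAS, from only 27 and 83 IP reads per bin. Deeper were chrIII:290001-300000, with levels of 0.020 in H3.3K27M OLLAS and 0.45 in H3.3 OLLAS, and chrIII:270001-280000, with 0.38 in H3.3K27M OLLAS and 0.79 in H3.3 OLLAS. However, the mean of chrIII:290001-300000 leaned on 1 bin with a difference of -3.51, the lowest of all bins. In that window 3 of 10 bins were higher in H3.3K27M OLLAS, and in chrIII:270001-280000 1 of 10. In the 3 windows on III the IP part was between -0.76 and -0.65. The window chrI:13610001-13620000, which had little H3K27me3 in the wild type (-2.49), had levels of 0.13 in H3.3K27M OLLAS and 0.62 in H3.3 OLLAS.

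**Figure D5:**
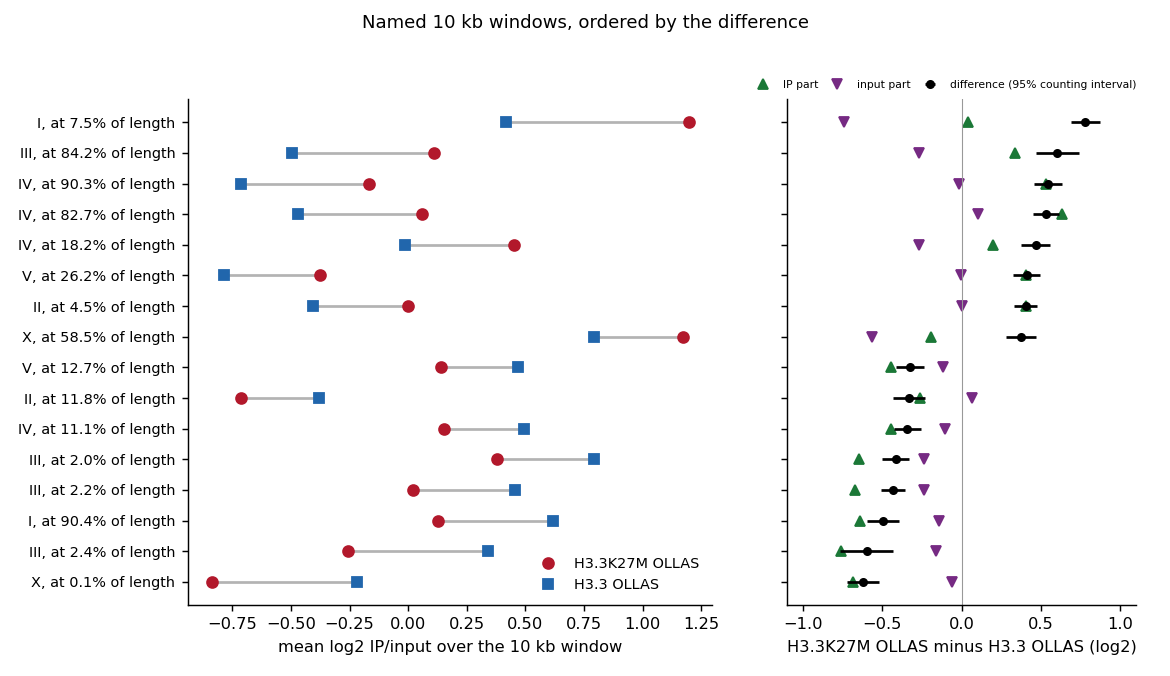
Left, mean level (log2 IP over input) in H3.3K27M OLLAS (red circles) and H3.3 OLLAS (blue squares) of the 16 windows of 10 kb with the largest differences in the genome or on a chromosome, labelled by chromosome and place along it. Right, the difference, H3.3K27M OLLAS minus H3.3 OLLAS (black, bars for the 95% interval from counting reads summed over the window), with its IP part (green) and input part (purple): in the topmost window, on I, the difference of 0.78 sits beside an IP part of 0.041 and an input part of -0.74.

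The largest difference of each remaining chromosome was smaller. On II, chrII:670001-680000 was higher in H3.3K27M OLLAS (-0.0016, against -0.41 in H3.3 OLLAS) and chrII:1790001-1800000 lower (-0.71, against -0.38 in H3.3 OLLAS). On V, chrV:5480001-5490000 had -0.38 in H3.3K27M OLLAS and -0.78 in H3.3 OLLAS, and chrV:2640001-2650000 had 0.14 in H3.3K27M OLLAS and 0.47 in H3.3 OLLAS. The lowest window of IV, chrIV:1930001-1940000, had 0.15 in H3.3K27M OLLAS and 0.49 in H3.3 OLLAS and, with chrV:2640001-2650000, combined low wild-type H3K27me3 (-2.90 and -2.10) with an IP part of -0.44. The highest window of X, chrX:10360001-10370000, had 1.17 in H3.3K27M OLLAS and 0.79 in H3.3 OLLAS, but its IP part was -0.19 and its input part -0.57, so it had fewer scaled IP reads in H3.3K27M OLLAS.

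Stretches that were rich or poor in both strains were longer than those that differed, but the cutoffs admit unlike numbers of bins. Bins rich in both numbered 12907 and bins poor in both 24667, against 904 higher and 635 lower by more than 0.5. The lengths of the 2 kinds of run are therefore not comparable. The longest run of bins rich in both was 35 kb, at chrIII:11451001-11486000, with a median level of 1.19 in H3.3K27M OLLAS and 1.02 in H3.3 OLLAS. Next came 2 runs on I, of 32 kb (chrI:11183001-11215000, 1.09 in H3.3K27M OLLAS and 1.14 in H3.3 OLLAS) and 31 kb (chrI:11075001-11106000, 1.09 in both). The longest runs poor in both were 3 on V, of 85, 85 and 80 kb. At chrV:7596001-7681000 the median level was -1.34 in H3.3K27M OLLAS and -1.27 in H3.3 OLLAS, at chrV:15210001-15295000 it was -1.33 in H3.3K27M OLLAS and -1.23 in H3.3 OLLAS, and at chrV:7261001-7341000 it was -1.39 in H3.3K27M OLLAS and -1.26 in H3.3 OLLAS. All 3 had a median wild-type H3K27me3 of 0.42.

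Runs of bins that differed by more than 0.5 reached 5 kb at most. The deepest of the 3 longest runs higher in H3.3K27M OLLAS was chrIII:5353001-5357000, with a median level of 1.40 in H3.3K27M OLLAS and 0.75 in H3.3 OLLAS from 2133 and 3255.5 IP reads per bin, and its input part (-0.48) exceeded its IP part (0.20). At chrIV:6356001-6361000 the levels were 2.08 in H3.3K27M OLLAS and 1.36 in H3.3 OLLAS, with an IP part of 0.64. The run chrI:1121001-1126000 lies in the highest window and includes a bin with 0 reads in 1 library. The longest runs lower in H3.3K27M OLLAS, of 4, 3 and 3 kb, had few reads: at chrX:4043001-4047000, levels of -0.80 in H3.3K27M OLLAS and 0.45 in H3.3 OLLAS rested on 25.5 and 57.5 IP reads per bin, and at chrIV:695001-698000 levels of -1.05 in H3.3K27M OLLAS and 0.011 in H3.3 OLLAS rested on 3 and 14. The third, chrIV:15079001-15082000, had levels of -0.20 in H3.3K27M OLLAS and 0.49 in H3.3 OLLAS from 54 and 159 IP reads, with an IP part of -0.76.

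Input-subtracted signal in bins of 100 bp, scaled IP minus scaled input reads, gave weight to the bins with the most reads. Over 1002719 bins the strains correlated at r = 0.95 (Spearman's rho 0.84), and this pooled r rests on chromosome I, where r was 0.98 and the SDs were 188 scaled reads in H3.3K27M OLLAS and 194 in H3.3 OLLAS. On the other chromosomes r was 0.85 (III and X) to 0.89 (IV and V). On this scale the range was narrower in the mutant. The SD over all bins was 88.2 scaled reads in H3.3K27M OLLAS and 92.5 in H3.3 OLLAS, and the highest 1% of bins began at 163 in H3.3K27M OLLAS and 197 in H3.3 OLLAS. Of the highest 1% of bins, 10027 in each strain, 6148 were shared (61.3% of each list), with the lowest share on IV (57.9%) and the highest on II (66.1%). By chromosome, the highest 1% began lower in H3.3K27M OLLAS on all 6, from 126 in H3.3K27M OLLAS and 138 in H3.3 OLLAS on X to 191 in H3.3K27M OLLAS and 235 in H3.3 OLLAS on I. The order of the strains in spread thus depends on the scale, since on the log2 scale H3.3K27M OLLAS had the wider range (SD 0.63, against 0.60 in H3.3 OLLAS).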

How the data were processed

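Native ChIP-seq reads of young adult nuclei (paired ends) were mapped by the authors with Novoalign (version not given in the sources used here) to WBcel215, binned by the maximum of reads in a bin, and scaled to equal read numbers. The deposited tracks merge replicates that passed the authors' quality check, in numbers not stated, and are described as smoothed to an extent not stated. The 1 kb and 10 kb tracks hold log2 of IP over input as the authors deposited them. The 100 bp tracks hold input-subtracted scores in scaled reads, made by the authors as IP minus input. Of 27 deposited tracks 10 were used, and 4 matched no described library.

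Whole reads were recovered from the log2 values, with the worth of 1 read taken from the commonest values of the 100 bp tracks and 1 scaled read added to IP and input (tolerance 1e-07). At least 99.988% of bins were solved. In 93510 bins of H3.3K27M OLLAS, the only track checked this way, solving without a search gave the same reads in 99.9936%. The step was tested on simulated data. Counting intervals (95%, from the reciprocals of the reads) cover counting error only. For windows they use reads summed over the window, in which shared reads can count more than once, whereas the difference is a mean over bins.

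Samples were grouped by strain and antibody in their labels, with 1 library per group, so no test was run, and medians with the middle 50% of bins are given. Bins were the rows of both OLLAS tracks matched by chromosome and start. Named 10 kb windows were the 5 highest and 5 lowest of the genome and the highest and lowest of each chromosome, and named runs the 3 longest of each kind. The bins, classes and lists were chosen with earlier results of these data known. Gene names and sequences were not used here, since no annotation of WBcel215 was at hand. Alternatives covered centring, quantile normalization, depth, IP alone, window size, scale, threshold, arm limits, the H3K27me3 classes and means. Python 3.11.15, NumPy 2.4.6, pandas 2.3.3 and SciPy 1.17.1 were used.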

Additional observations from a re-analysis of the deposited data

How the results depend on the processing

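No paired analysis was possible because each strain had 1 IP and 1 input library, and for the same reason no replicate could be left out. Depth limits single bins (counting SD 0.16), and the merging and smoothing by the authors are of unknown extent. Of the 69 values of the main results under the alternatives, 22 stayed close to their main value (3 of them contrasts that centring cannot change), 45 moved and 2 reversed. Except for counts of bins, moved means a change beyond a 95% half-width that takes bins as independent, which neighbouring bins are not. Small changes therefore count as moved, such as a ratio of the SDs of the levels of 1.042 in place of 1.045. Some of the 45 could not have stayed: contrasts on input-subtracted signal are in another unit, and counts over 0.5 or 1.5 use another threshold. The causes were not tested. On scaled IP reads alone, X minus autosomes in the difference was 0.017 (main value -0.032) and arms minus centres in H3.3K27M OLLAS -0.087 (main value 0.10). There, arms minus centres was 0.089 in H3.3 OLLAS and -0.17 in the difference, top minus bottom H3K27me3 class was 0.25 in the difference and -0.93 in H3.3 OLLAS, the SD of the difference 0.235, the ratio of the SDs of the levels 0.988, and 28 bins were higher by more than 1. With at least 100 reads in each library, 1 bin was higher and 3 were lower, the SD was 0.192 and the ratio 1.04. Differences over 0.5 in place of 1 gave 904 higher and 635 lower bins, and over 1.5 gave 55 and 34. Quantile normalization gave an SD of 0.208 and a top minus bottom class difference of 0.16. In 10 kb windows the SD was 0.117, the ratio 1.025, arms minus centres 0.13 in H3.3K27M OLLAS and 0.18 in H3.3 OLLAS, and top minus bottom class -0.85 in H3.3K27M OLLAS, -0.97 in H3.3 OLLAS and 0.099 in the difference. With the outer 1 in 3 of each chromosome end as arms, arms minus centres was 0.082 in H3.3K27M OLLAS, 0.13 in H3.3 OLLAS and -0.056 in the difference. With means, it was 0.076 in H3.3K27M OLLAS and 0.14 in H3.3 OLLAS, top minus bottom class -0.60 in H3.3K27M OLLAS and -0.73 in H3.3 OLLAS, and X minus autosomes in the difference -0.036. With H3K27me3 classes from the H3-like strain, top minus bottom was -0.70 in H3.3K27M OLLAS, -0.88 in H3.3 OLLAS and 0.15 in the difference. With at least 100 wild-type H3K27me3 reads, an alternative chosen after seeing the data, it was -0.65 in H3.3K27M OLLAS, -0.79 in H3.3 OLLAS and 0.12 in the difference. On input-subtracted signal, in scaled reads, top minus bottom was -34.6 in H3.3K27M OLLAS, -52.0 in H3.3 OLLAS and 15.8 in the difference, arms minus centres 6.68 in H3.3K27M OLLAS, 10.3 in H3.3 OLLAS and -4.18 in the difference, X minus autosomes -0.46, and the window chrIII:11590001-11600000 had the opposite sign (-1.34). Centring each track on its median gave 107 higher and 91 lower bins.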

Other observations

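The mitochondrial genome, which has no histones, was left out of every comparison. Its 13 bins of 1 kb had levels of -0.40 to 0.031 with a median of -0.18 in H3.3K27M OLLAS, and of -0.47 to 0.15 with a median of -0.063 in H3.3 OLLAS. These levels lie within the range of nuclear bins.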
